A study of Homo sapiens with 7 samples.

Results

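The loci of 4 receptor tyrosine kinases, FGFR4, ALK, MET and IGF1R, held 13 of the 5782 sites at which HA-tagged PAX3-FOXO1 was counted. A site belonged to a locus when its centre lay inside the hg19 interval of the gene or within 100 kb of it. This rule used no measured value, but the loci were chosen with earlier results of these data known. By this rule FGFR4 had 2 sites, ALK 6, MET 4 and IGF1R 1. Binding was read by CUT&RUN with an anti-HA antibody in Rh4 cells, an established rhabdomyosarcoma line. All libraries came from Rh4 cells whose PAX3-FOXO1 fusion carries FKBP, a degron, together with an HA tag; the libraries used here were all crosslinked. The 3 groups were DMSO (2 libraries), 500 nM dTAG47 for 2 h (2 libraries) and 500 nM dTAG47 for 4 h (2 libraries). dTAG47 binds FKBP and recruits an E3 ubiquitin ligase, so that the tagged fusion is degraded. The labels do not say whether the cells are a single clone, nor whether libraries came from separate cultures. What the p-values measure is thus library-to-library spread, and that spread may be technical.

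Receptor tyrosine kinases sit in the cell membrane, bind growth factors outside the cell and start kinase signalling inside it. PAX3-FOXO1 joins the DNA-binding domains of PAX3, a regulator of muscle precursors, to the activation domain of FOXO1, and acts largely through enhancers that can lie inside or far from the gene they serve. FGFR4, a receptor for fibroblast growth factors, is a known target of the fusion in fusion-positive rhabdomyosarcoma. ALK is a receptor best known for activating mutations and fusions in neuroblastoma and lymphoma. MET is the receptor for hepatocyte growth factor and guides migrating muscle precursors. IGF1R binds insulin-like growth factors and supports the growth of muscle and of rhabdomyosarcoma cells.

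The libraries set how far these sites can be compared. Summed over all 5782 sites a column held 110440 to 380057 reads, and the median site held 12 to 48. The 4 h columns A and B agreed within sampling noise (chi-square over degrees of freedom 1.012, p = 0.265, where the DMSO pair gave 2.075 and the 2 h pair 1.954). They were therefore summed and counted as 1 sample (n = 1 at 4 h), although the sample titles name the 4 h libraries as replicates. Agreement within sampling noise does not show that they are 1 sample. With the columns summed, no spread between 4 h libraries enters the SE or p-values given at 4 h. In the main fits that spread comes from the DMSO and 2 h pairs. The DMSO library B held 1.81 times the reads of DMSO library A at the 13 sites. The 20 sites of the series with the most reads held 15013 to 17913 reads in every column and did not follow these totals.

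No member lay at a gene start. Of the 13 sites, 9 lay inside a gene interval and 4 lay past its end, and none lay upstream of a start. Sites are numbered here in the direction of transcription, from the start of each gene. FGFR4 site 1 (chr5:176525419-176525819) was centred 0.5 kb past the end of the gene and FGFR4 site 2 (chr5:176532731-176533131) 7.8 kb past it, on the NSD1 side. All 6 ALK sites lay inside that gene, at 86.9, 110.2, 263.9, 445.8, 522.6 and 559.8 kb from its start. In the MET locus, site 1 (chr7:116374415-116374815) lay 62.2 kb, site 2 (chr7:116382109-116382509) 69.8 kb and site 3 (chr7:116422343-116422743) 110.1 kb from the start. MET site 4 (chr7:116442611-116443011) lay 4.4 kb past the end of the gene, on the side of CAPZA2. The IGF1R site (chr15:99605221-99605621) lay 97.7 kb past the end of the gene, and PGPEP1L and then SYNM follow IGF1R on that side. It was thus a member by a margin of a few kb, and the IGF1R interval itself held no site.

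The next sites outside the limit showed how the rule separates. At IGF1R the nearest site left out lay 101 kb before the gene, with 15 and 25 reads in the DMSO libraries. At MET the nearest one left out lay 101.3 kb before the gene, with 28 and 61 reads. The nearest sites left out at ALK and FGFR4 were 312.5 and 448.1 kb away.

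**Figure D1:**
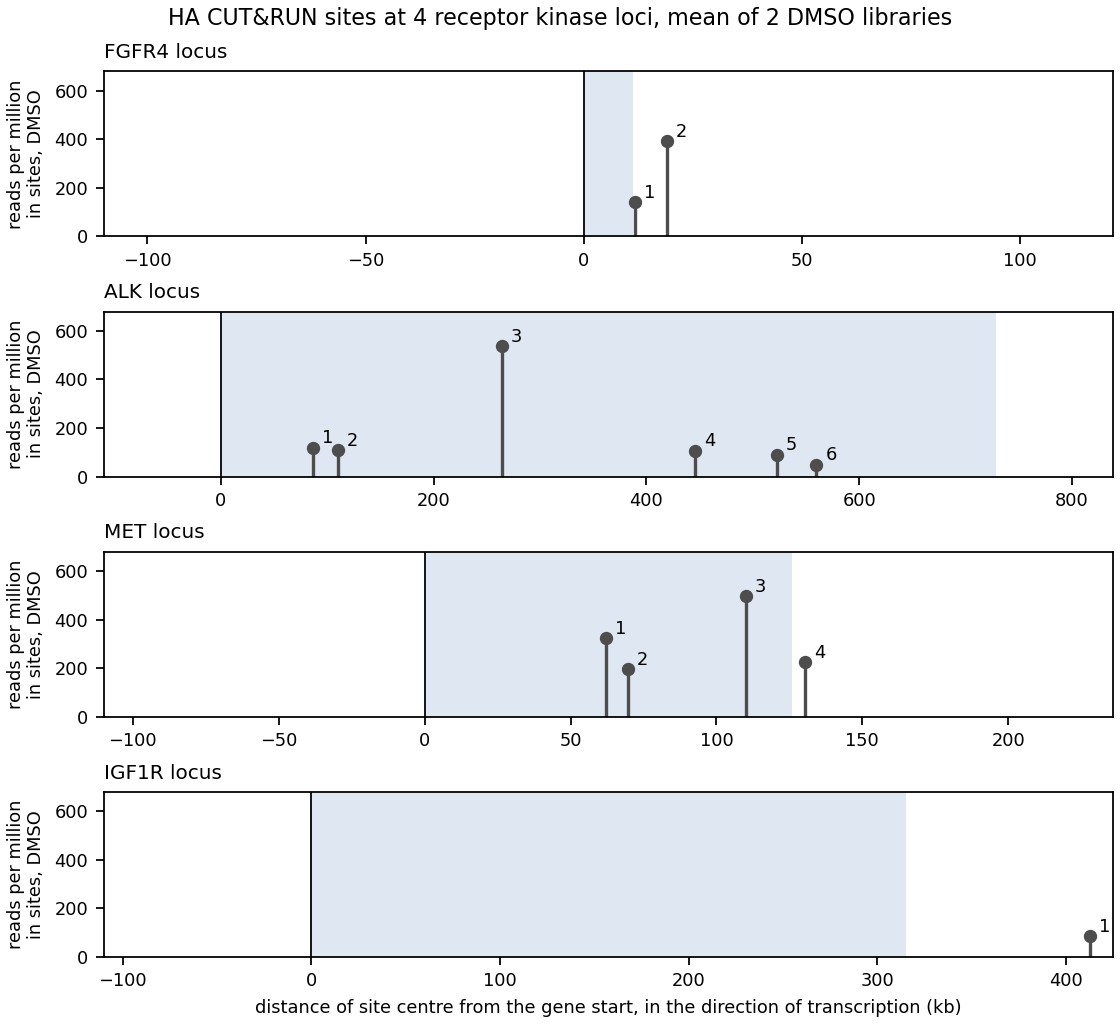
Position and DMSO level of the 13 sites. The x axis gives the distance of the site centre from the gene start in kb, shading marks the gene interval, and the y axis gives the mean CPM of the 2 DMSO libraries. ALK site 3, MET site 3 and FGFR4 site 2 are the tallest, and the IGF1R site lies outside its gene.

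The level in DMSO was highest at 1 site in each of the first 3 loci. Levels here are CPM, the count at a site divided by all reads of that library in sites and scaled to a common total. Every site spans 400 bases, so site width does not enter a comparison between sites. Other differences between loci, such as copy number, were not corrected for. ALK site 3 (chr2:29880344-29880744) had 517.5 and 555.2 CPM in DMSO libraries A and B and ranked 154 of 5782. MET site 3 had 460.0 and 534.1 and ranked 188. The ranges of these 2 sites overlapped. FGFR4 site 2 followed at 389.3 and 394.7, rank 340, below both without overlap.

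The other sites were lower. MET site 1 had a level of 296.4 and 349.9 CPM, MET site 4 had 234.4 and 213.1, and MET site 2 had 181.4 and 210.5, and no neighbours in this order overlapped. FGFR4 site 1 was next at 132.7 and 150.0, overlapping ALK site 1 below it. The levels of ALK sites 1, 2, 4 and 5 and of the IGF1R site then overlapped or touched from 1 to the next, with means between 118.38 and 85.02 CPM. ALK site 6 was the lowest, at 53.1 and 44.7. The median member had 141.3 CPM against 124.5 for all sites, and 5 of the 13 (38.5%) were among the strongest 25% of the table.

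**Figure D2:**
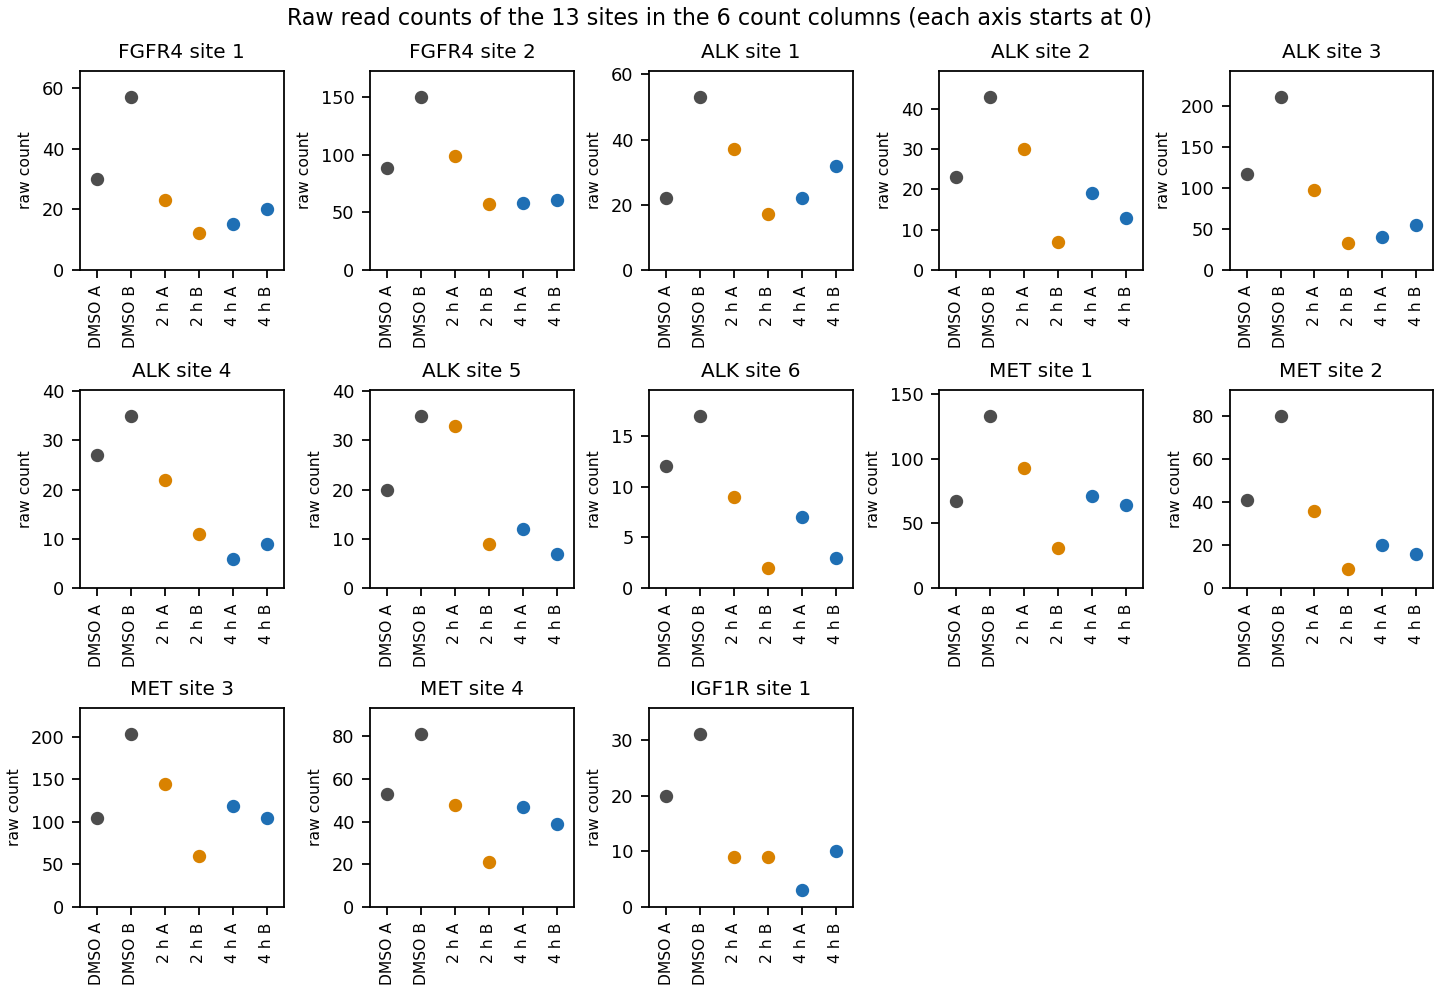
Raw read counts of the 13 sites. Each panel is 1 site, the x axis gives the 6 count columns and the y axis the raw count from 0. DMSO library B is the highest point at all 13 sites, and at 10 of them neither 4 h column reaches the lower DMSO library.

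The first question was how many HA reads each receptor locus held once dTAG47 had been added. At all 13 sites the mean count was lower after 2 h and after 4 h than with DMSO. Over the 13 sites together the count was 876.5 ± 357.1 (SD, n = 2) with DMSO, 479.5 ± 285.0 (SD, n = 2) at 2 h and 436.0 at 4 h, which is 54.7% and 49.7% of the DMSO mean. At 10 of the 13 sites neither 4 h column reached the lower DMSO count, and this held for 79% of all sites. For the 2 h libraries it held at 7 of the 13 and at 49.8% of all sites. These shares were near those of the whole table. Library totals differed in the same direction, so less binding at these loci and a lower yield of reads cannot be told apart in raw counts.

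The FGFR4 locus held about the same part of all reads in each group. FGFR4 site 1 held 30 (DMSO A) and 57 (DMSO B) reads, then 23 and 12 after 2 h of dTAG47, then 15 and 20 after 4 h. Its treated columns all lay below both DMSO libraries. FGFR4 site 2 held 88 (DMSO A) and 150 (DMSO B) reads, then 99 and 57 after 2 h of dTAG47, then 58 and 61 after 4 h. Here the 2 h library A lay above DMSO library A, while both 4 h columns lay below the DMSO pair. Summed over the locus, the count was 162.5 ± 62.9 (SD, n = 2) with DMSO, 95.5 ± 37.5 (SD, n = 2) at 2 h and 77.0 at 4 h. Its level was 533.3 ± 16.0 (SD, n = 2) CPM with DMSO, 579.6 ± 63.9 (SD, n = 2) at 2 h and 499.7 at 4 h.

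At ALK the strongest site was also among those with the lowest 4 h counts relative to DMSO. ALK site 3, deep in the gene, held 117 (DMSO A) and 211 (DMSO B) reads, then 97 and 33 after 2 h of dTAG47, then 40 and 55 after 4 h. All treated columns lay below both DMSO libraries, in counts and in CPM. Its 4 h mean was 29.0% of the DMSO mean, a raw log2 change of −1.79 (SE 1.186). ALK site 4 (chr2:29698441-29698841) held 27 (DMSO A) and 35 (DMSO B) reads, then 22 and 11 after 2 h of dTAG47, then 6 and 9 after 4 h. It was the member with the lowest 4 h count relative to DMSO, at 24.2%, yet at 2 h its level of 97.98 CPM was close to the 105.76 of DMSO. ALK site 5 (chr2:29621602-29622002) held 20 (DMSO A) and 35 (DMSO B) reads, then 33 and 9 after 2 h of dTAG47, then 12 and 7 after 4 h. Its 2 h libraries fell on either side of DMSO library A, and only the 4 h columns were below both controls.

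ALK site 1, the member nearest the ALK start, had another order of the groups in CPM. ALK site 1 (chr2:30057365-30057765) held 22 (DMSO A) and 53 (DMSO B) reads, then 37 and 17 after 2 h of dTAG47, then 22 and 32 after 4 h. Its CPM was 97.3 and 139.5 in the controls, 162.1 and 153.9 after 2 h of dTAG47, and 145.3 and 204.0 after 4 h. All treated columns thus lay above both DMSO libraries on that scale, while in raw counts the groups overlapped. ALK site 2 (chr2:30034000-30034400) held 23 (DMSO A) and 43 (DMSO B) reads, then 30 and 7 after 2 h of dTAG47, then 19 and 13 after 4 h, and its groups overlapped in CPM. ALK site 6 (chr2:29584401-29584801), with 12 and 17 control reads, 9 and 2 after 2 h of dTAG47 and 7 and 3 after 4 h, was below the limit on low counts and was not tested.

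Over the whole ALK locus the count was 307.5 ± 122.3 (SD, n = 2) with DMSO, 153.5 ± 105.4 (SD, n = 2) at 2 h and 112.5 at 4 h. In CPM the locus had 1007.1 ± 41.8 (SD, n = 2) with DMSO, 857.0 ± 200.4 (SD, n = 2) at 2 h and 730.0 at 4 h. The 4 h share was 72.5% of the DMSO share.

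MET had the highest 4 h count relative to DMSO of the 4 loci, 63.0%, beside 47.4% at FGFR4, 36.6% at ALK and 25.5% at IGF1R. MET site 3, the strongest, held 104 (DMSO A) and 203 (DMSO B) reads, then 145 and 60 after 2 h of dTAG47, then 119 and 104 after 4 h. Its 4 h counts were thus no lower than DMSO library A, and in CPM both 4 h columns (786.2 and 663.1) lay above both DMSO libraries. MET site 1 held 67 (DMSO A) and 133 (DMSO B) reads, then 93 and 31 after 2 h of dTAG47, then 71 and 64 after 4 h, where DMSO library A falls between the 4 h columns. MET site 4, past the end of the gene, held 53 (DMSO A) and 81 (DMSO B) reads, then 48 and 21 after 2 h of dTAG47, then 47 and 39 after 4 h. All its treated columns were below both controls in counts, and its 4 h columns were above both in CPM.

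MET site 2 stood apart from the other MET sites in its counts. It held 41 (DMSO A) and 80 (DMSO B) reads, then 36 and 9 after 2 h of dTAG47, then 20 and 16 after 4 h, with all treated columns below both controls in counts and in CPM. Its 4 h mean was 29.8% of the DMSO mean, while MET site 1, 7.7 kb away, stood at 67.5%. Summed over the locus, MET had 381.0 ± 164.0 (SD, n = 2) reads with DMSO, 221.5 ± 142.1 (SD, n = 2) at 2 h and 240.0 at 4 h. Its share was 1240.0 ± 95.8 (SD, n = 2) CPM with DMSO, 1253.0 ± 222.6 (SD, n = 2) at 2 h and 1557.4 at 4 h, or 125.6% of the DMSO share.

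The IGF1R site was weak. It held 20 (DMSO A) and 31 (DMSO B) reads, 9 in each 2 h library, and 3 and 10 in the 4 h pair. All treated columns lay below both controls in counts. In CPM its controls stood at 88.5 and 81.6 and its 2 h libraries at 39.4 and 81.5, so that the 2 h library B was at the level of DMSO library B. The 4 h columns were at 19.8 and 63.8 CPM, resting on 3 and 10 reads.

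Comparing the locus shares at 2 h with DMSO by a two-sided exact permutation test gave p = 0.667 for FGFR4 and ALK, p = 1.0 for MET and p = 0.333 for IGF1R. With 2 libraries against 2 the smallest p is 0.333, so this design cannot reach 0.05. At 4 h, where n = 1, no such test was made. The site tests that follow do cover 4 h, but their main fits hold no spread between 4 h libraries.

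Site by site, 0 of the 12 tested members passed the threshold in any comparison. Raw counts with no scaling were tested first, in 1 fit over the 5575 sites with enough reads (quasi-likelihood test of edgeR, p adjusted by Benjamini-Hochberg and under 0.05). This test called 0 members and 0% of all sites at 2 h, and 0 members and 0% at 4 h. At an unadjusted p under 0.05 there was 1 member at each time, the IGF1R site, against 8.41% and 5.74% of all tested sites. DESeq2 on raw counts also called 0 members at both times, and 0.209% and 0.0179% of all sites with an adjusted p. At an unadjusted p under 0.05 DESeq2 held 0 members at 2 h and 3 at 4 h, against 12.8% and 11.8% of all tested sites. The median raw log2 change of the members was −0.87 at 2 h and −1.17 at 4 h, beside −0.93 and −1.08 over all tested sites. It depended on single libraries: at 2 h it was −1.63 without 2 h library A, −0.37 without 2 h library B and −0.47 without DMSO library B, and at 4 h it was −0.67 without DMSO library B. The raw edgeR fit with the 4 h columns summed made no call anywhere in the table, so it separates no site from the others.

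The relative comparison asked which receptor sites stood lower or higher than the typical site, with TMM scaling that removes a change common to most sites. At 2 h it called 0 members (edgeR, adjusted p under 0.05), while 3.62% of all sites fell and 1.92% rose. At 4 h it again called 0 members, while 5.49% fell and 2.71% rose. At an unadjusted p under 0.05 there were 0 members at 2 h, against 18.9% of all tested sites, and 6 members at 4 h, against 22.9%. These 6 were ALK sites 1, 3 and 4 and MET sites 1, 2 and 3. DESeq2 called 0 of 12 members at 2 h and 0 of the 8 members given an adjusted p at 4 h, and few sites in all, 0.292% and 0.627% of those with an adjusted p. At an unadjusted p under 0.05 DESeq2 held 0 members at both times, against 4.5% and 4.13% of all tested sites. The median relative log2 change of the members was 0.07 at 2 h and −0.08 at 4 h, beside 0.01 and 0.02 over all tested sites. The median receptor site was thus within 0.1 of the median of all tested sites, with single sites on both sides.

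At 4 h the members ran from −0.94 to 0.66 on the relative log2 scale. Of all tested sites, 7.2% lay at or below the lowest member and 90.9% at or below the highest. ALK site 4 had the lowest relative log2 change, −0.94 (SE 0.397, edgeR adjusted p = 0.141). The IGF1R site followed at −0.87 (SE 0.475, adjusted p = 0.285 in edgeR). ALK site 3 was at −0.68 (SE 0.268) and MET site 2 at −0.64 (SE 0.288), with edgeR adjusted p-values of 0.113 and 0.174.

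At the other end were sites with more reads than the typical site left at 4 h. MET site 3 was at 0.66 (SE 0.273, edgeR adjusted p = 0.135) and ALK site 1 at 0.63 (SE 0.275, edgeR adjusted p = 0.156). MET site 1 was at 0.55 (SE 0.251) and MET site 4 at 0.45 (SE 0.241). Both FGFR4 sites were near 0, at −0.21 (SE 0.289) and 0.10 (SE 0.26). With every size set by the 20 sites of highest count, all of these positive values became negative. They were −0.39 at MET site 3, −0.40 at ALK site 1, −0.50 at MET site 1, −0.57 at MET site 4 and −0.93 at FGFR4 site 2. That scale removes only a change that those 20 sites share, and whether dTAG47 leaves them unchanged was not tested. A positive relative value gives a place among the sites and by itself shows no gain of reads.

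At 2 h the members ran from −0.54 to 0.55 on the relative log2 scale. FGFR4 site 2 was at 0.37 (SE 0.225) and MET site 3 at 0.37 (SE 0.241). MET site 2 was at −0.49 (SE 0.262), ALK site 3 at −0.42 (SE 0.227) and the IGF1R site at −0.54 (SE 0.426). ALK site 5 had the highest relative log2 change of the members at 2 h, 0.55 (SE 0.308), and a negative one at 4 h, −0.43 (SE 0.385). The comparisons of 2 h and 4 h share their DMSO libraries, so values on the same side at both times are not separate evidence.

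**Figure D3:**
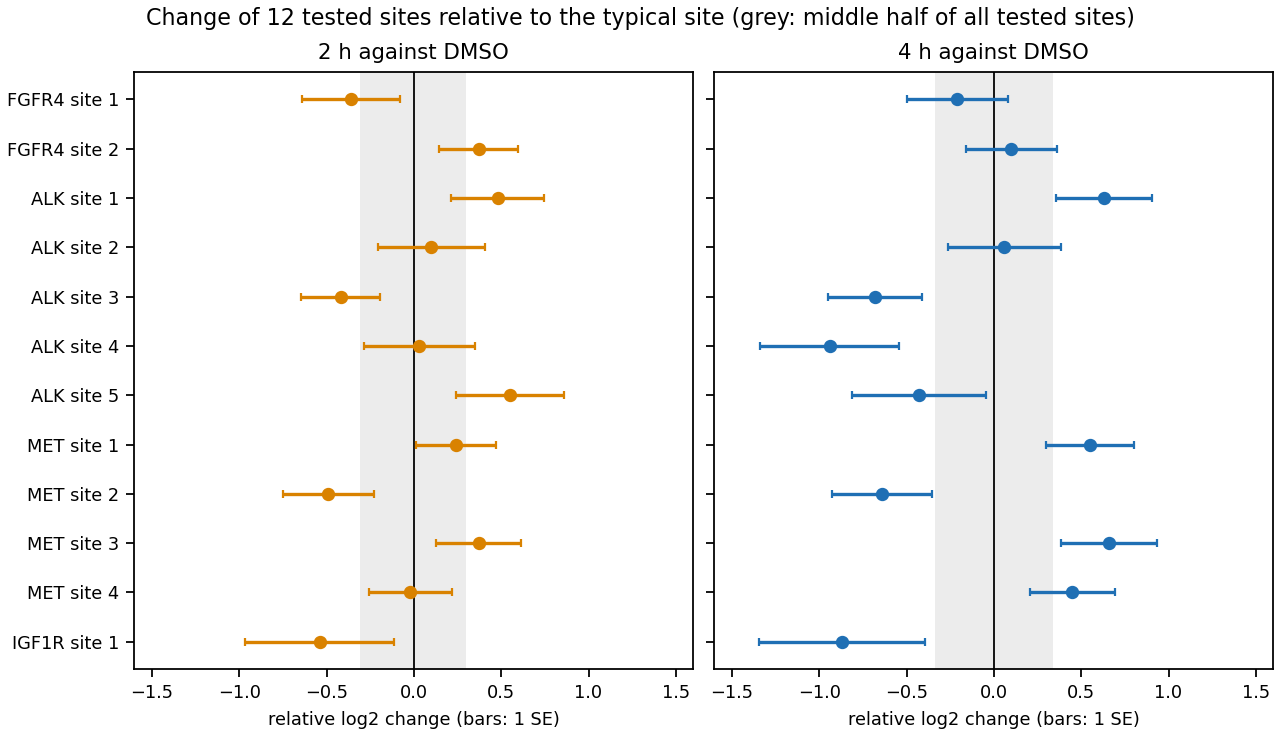
Relative log2 change of the 12 tested sites at 2 h and 4 h. Points are fitted values against DMSO, bars are 1 SE, and the grey band spans the quartiles of all 5575 tested sites. At 4 h, MET sites 1, 3 and 4 and ALK site 1 lie to the right of the band. MET site 2, ALK sites 3, 4 and 5 and the IGF1R site lie to the left, and none passes the adjusted threshold.

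Whether a site is called at 4 h rested on how the 4 h columns were counted. With both columns entered as separate libraries, ALK site 3 became a relative fall (edgeR adjusted p = 0.0345) and MET site 3 a relative rise (edgeR adjusted p = 0.035). Over all alternatives the edgeR and DESeq2 adjusted p ran from 0.0345 to 1 at ALK site 3 and from 0.035 to 1 at MET site 3. In that fit 6.74% of all sites fell and 4.7% rose. In raw counts the IGF1R site became a fall (edgeR adjusted p = 0.0479, and 0.0479 to 1 over all alternatives), where 6.19% of all sites fell. These 3 calls treat columns that did not differ beyond sampling noise as separate samples. The sample titles name the 4 h libraries as replicates.

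In CPM, 7 of the 13 members had both 4 h columns under the DMSO pair and 4 had both over it. Over all sites these shares were 34.4% and 19.2%. CPM divides by a total that includes the 20 highest sites, which made up 7.8% and 4.6% of the DMSO totals and 10.9% of each 4 h total. With totals alone, the median log2 change of all tested sites at 4 h was −0.11, against 0.02 with TMM. A lower CPM can thus be a small shift: FGFR4 site 2, among the 7, stood at 98.5% of its DMSO level. At 2 h, 6 members lay below and 3 above, against 32.4% and 15.4% of all sites. The 4 members above at 4 h were ALK site 1 and MET sites 1, 3 and 4.

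The next question was whether occupancy went on changing between 2 h and 4 h. The relative comparison of 4 h with 2 h called 0 members and 0% of all sites (edgeR, adjusted p under 0.05). At an unadjusted p under 0.05 it held 2 members, ALK sites 4 and 5, against 4.63% of all tested sites, and DESeq2 called 0 members and 0% of all sites, with 0 members at an unadjusted p under 0.05. Between 2 h and 4 h both ALK sites had a relative log2 change of −0.97 (SE 0.438 and 0.395, edgeR adjusted p = 1). The 2 h library B held 11 and 9 reads at these sites, so the change rests on few reads.

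A comparison that needs no library scaling is the share of each site within its own locus, since all sites of a locus are read in the same library. It was added after the counts had been seen and is given as a description. MET site 2 held 15.5% (exact 95% binomial interval 11.3 to 20.4) and 16.1% (13 to 19.6) of the MET count in DMSO libraries A and B. It held 11.2% (8.0 to 15.1) and 7.4% (3.5 to 13.7) in the 2 h libraries, and 7.5% (5.3 to 10.2) in the summed 4 h columns. The treated shares were all below both DMSO shares. The interval of the summed 4 h columns lay below both DMSO intervals, while those of the single 4 h columns (4.8 to 11.8 and 4.2 to 11.4) overlapped that of DMSO library A. MET site 3 was higher after dTAG47, at 39.2% and 40.8% in the controls, 45.0% and 49.6% after 2 h and 46.5% after 4 h, with overlapping intervals. MET sites 1 and 4 kept shares of 25.3% to 28.9% and 14.9% to 20%.

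Neighbouring sites give the same picture as a ratio. MET site 1 had 1.63 and 1.66 times the reads of MET site 2 with DMSO. It had 2.58 and 3.44 times at 2 h, and 3.55 and 4.0 times in the 4 h columns. No treated ratio overlapped the DMSO pair. The same held for 5 of the 9 pairs of adjacent member sites, the others being FGFR4 sites 1 and 2, ALK sites 2 and 3, MET sites 2 and 3 and MET sites 3 and 4. Over all 5758 pairs of neighbouring sites in the table it held for 28.3%. The pairs share sites, no test was made of this difference, and MET sites 1 and 2 were named after their values were seen. Some of the 5 pairs were apart by a small margin only. FGFR4 sites 1 and 2 had ratios of 0.34 and 0.38 with DMSO and 0.33 in 4 h column B. ALK sites 2 and 3 had 0.2 in both DMSO libraries and 0.21 in 2 h library B. MET sites 3 and 4 had 2.51 in DMSO library B and 2.53 in 4 h column A. The binomial intervals cover counting error only. The summed 4 h columns count as 1 sample, so no test of the 4 h share was made.

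Within ALK, site 3 held 52.9% and 53.6% of the locus count with DMSO, 42.5% and 41.8% at 2 h and 42.2% (exact 95% interval 35.7 to 49.0) at 4 h. ALK site 1 held 10.0% and 13.5% in the controls, 16.2% and 21.5% after 2 h and 24.0% (18.6 to 30.1) after 4 h. That summed interval lay above both DMSO intervals (6.3 to 14.7 and 10.2 to 17.2), while that of the 4 h column A alone (13.5 to 29.7) overlapped both. The treated shares of both sites lay outside the DMSO pair, on opposite sides. Within FGFR4, site 1 held 25.4% and 27.5% with DMSO, 18.9% and 17.4% at 2 h and 22.7% (16.4 to 30.2) at 4 h, and these intervals overlapped.

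**Figure D4:**
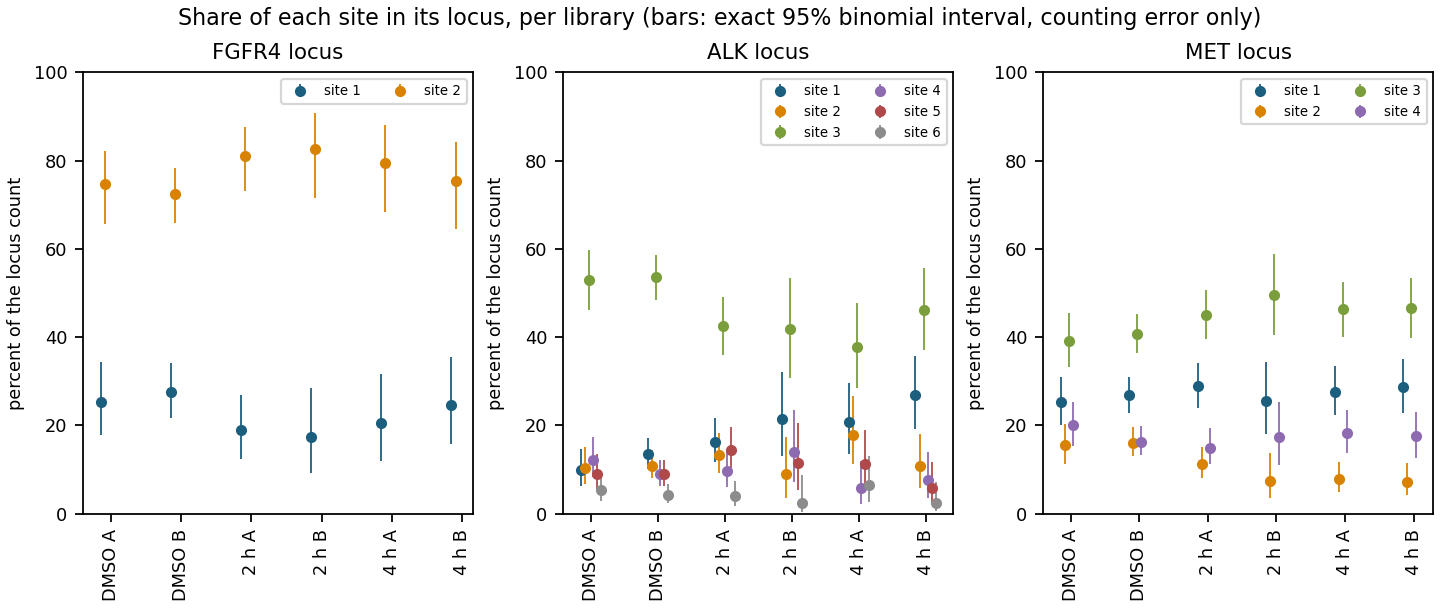
Share of each site in the count of its locus. The x axis gives the 6 count columns, the y axis the percent of the locus count, and bars are exact 95% binomial intervals that cover counting error only. MET site 2 stands at 15.5% and 16.1% with DMSO and at 7.8% and 7.2% in the 4 h columns, while the 2 FGFR4 sites keep their order in every column.

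Sites elsewhere with similar profiles were sought by the root mean square difference of log2 CPM over the 6 columns. For FGFR4 site 2 the closest was chr4:16138157-16138557, at 0.12. For ALK site 3 it was chr9:1320316-1320716, at 0.14, with 112 and 200 control reads, then 42 and 61 after 4 h. For MET site 3 it was chr18:20805620-20806020, at 0.09, with 116 and 190 control reads, then 115 and 96 after 4 h. For the IGF1R site it was chr21:19574936-19575336, at 0.23. The search returns a closest site in every case, and it matched on these same 6 columns. The sites are given as examples from other chromosomes, and their likeness was not tested.

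The median distance from a member to the nearest other site was 23.4 kb, against 68.7 kb over all sites, and no test was made of this difference. The MET window held 1.23 sites per 100 kb, FGFR4 0.95, ALK 0.65 and IGF1R 0.19. Both FGFR4 sites were 7.3 kb apart, and MET sites 1 and 2 were 7.7 kb apart.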

How the data were processed

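HA CUT&RUN counts of 6 crosslinked columns were used, and the uncrosslinked DMSO library was not. The values are raw read counts per site, deposited by the authors without normalization. Per the submitters' processing notes, the tools include Bowtie2, Trimmomatic 0.32, DiffBind, Genrich 0.6.1, deepTools and DESeq2, with hg19. The sources used here give no roles, settings, site choice or duplicate removal. The DMSO columns do not name crosslinking; they were assigned to the crosslinked group, the only DMSO group of 2. Coordinates are as deposited and may be off by 1 base. Gene intervals came with the rule; gene strand and neighbour names came from RefSeq (GRCh38.p14), with no coordinates taken. No hg19 genome or annotation was used here, so exons, site sequences, motifs and other receptor loci are not given.

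Sites passing filterByExpr (minimum count 10, minimum total 15; 5575 kept, 207 removed) were fitted together with edgeR 4.0.16 (R 4.3.3), with treatment as the only term, the 4 h columns summed and 2 residual degrees of freedom. The raw fit gave each column the same size; the relative fit used totals in sites with TMM. SE is the log2 change over the square root of F. Coefficients of variation were 45.4% (raw) and 12.7% (relative). DESeq2 1.42.0, other scalings, filters, windows and left-out columns were alternatives. The fits were also run on simulated counts, and no statement here rests on that run. For the raw fit all simulated columns had the same size, unlike the real columns. All 13 members were named by rule; likeness used a prior count of 2. Members and lists were chosen with earlier results of these data known.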

Additional observations from a re-analysis of the deposited data

How the results depend on the processing

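The count of called members stayed at its reported 0 in 74 of 76 alternatives, namely other filters, scalings, tests and windows, compared groups only, the replicate block and each column left out. With the 4 h columns as separate libraries it became 2 relative and 1 raw calls at 4 h. A count of 0 in a test that calls few or no sites is no sign of stability. The narrower windows recount members of the reported fit, so their counts of 0 were fixed in advance. With sizes from the 20 highest sites, the raw and relative fits are the same fit. The median relative log2 change kept within the spread between libraries under all alternatives but 1. With sizes from the 20 highest sites it turned from 0.07 to −0.81 at 2 h and moved from −0.08 to −1.11 at 4 h. That scale removes only a change shared by those 20 sites. Without 1 column in turn, the median raw log2 change ran from −1.63 (without 2 h library A) to −0.37 (without 2 h library B) at 2 h, and from −1.56 (without DMSO library A) to −0.67 (without DMSO library B) at 4 h. The column letter as a replicate block, with the 4 h columns separate, gave 0 calls and median raw log2 changes of −0.97 and −1.22; the letters did not pair libraries (correlations of A minus B differences −0.201, 0.012 and −0.009). Counts of 2 to 35 reads per column at the weakest sites (ALK sites 4 to 6 and IGF1R) limit what single sites can show.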
